A study of Mus musculus with 8 samples.

Results

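The unfolded protein response and the integrated stress response were described through 33 genes of these pathways, picked by symbol from the deposited gene count table. All 33 were found among its 54532 gene rows. They took 34 rows, because a 105-base gene model inside Ddit3 carries the same symbol. That second row had 0 counts in every library and was left aside. The RNA came from macrophages of the mouse peritoneal cavity elicited with thioglycollate, which recruits leukocytes there. Each of the 8 libraries is named by letter, genotype and a number, which is read here as an animal number. Of these, 3 were wild type with the letter M (M_WT_5643, then M_WT_6258 and M_WT_6255). A further 3 were knockout with the same letter (M_KO_5944, then M_KO_5645 and M_KO_5642). The letter F had a pair, with F_WT_5638 as wild type and F_KO_5639 as knockout. Values by library follow this order throughout. WT stands for wild type and KO for a Men1 knockout, where Men1 is the gene of menin, a chromatin adaptor in histone methyltransferase complexes. All 8 libraries share the thioglycollate. The letters M and F are not spelled out, and no source used here gives strain, age, days after thioglycollate, or the promoter or Cre line behind the knockout. The comparison asked which genes of both responses differed between M_KO and M_WT, and whether the F pair showed the same.

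The endoplasmic reticulum (ER) folds secreted and membrane proteins, and unfolded protein there is sensed by IRE1 (gene Ern1), PERK (Eif2ak3) and ATF6. IRE1 splices the Xbp1 messenger, and XBP1 and ATF6 then switch on chaperones and degradation genes, while PERK phosphorylates the initiation factor eIF2alpha, which slows translation in general but favours that of ATF4. Other kinases of eIF2alpha, which sense lack of amino acids, viral RNA or lack of heme, lead to the same ATF4 branch, and together these routes are called the integrated stress response. In macrophages the pathway carries secretory load and is known to be engaged by Toll-like receptor signals.

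Total counts ran from 18206427 to 22853583 per library, and 1.076% to 1.359% of counts fell on mitochondrial genes. Men1 was at 17.15 to 25.7 CPM (counts scaled to library size with TMM factors) in the WT libraries and at 6.455 to 11.7 CPM in the KO libraries, so transcript remained in each KO library. All 10 macrophage markers passed the expression filter, with a summed level of 18172 to 32278 CPM. The summed level of 8 T cell markers was 0.658 to 3.48 CPM and that of 11 neutrophil markers 4.48 to 18.6 CPM, while 10 B cell markers reached 86.9 to 401.0 CPM. M_KO_5645 was the lowest of the 6 M libraries for 22.8% of the 13646 genes tested and the highest for 23.1% of them. Each library has its own number in the titles, read here as that of an animal. Litter, batch and day are not stated, and p-values here measure the spread between these libraries only.

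No member passed the test between M_KO and M_WT. EdgeR's quasi-likelihood test called 0 of 33 members at an adjusted p under 0.05, against 0.022% of all genes tested, and the smallest adjusted p of a member was 0.464, for Creld2. At an unadjusted p under 0.05 there were 2 members, Creld2 and Hspa5, both lower, against 9.56% of all genes in either direction and 4.22% lower. DESeq2 called 0 members (1.19% of its genes), and the authors' deposited table calls 0 members as well (0.553% of its rows), with a smallest adjusted p of 0.614 for Creld2. Of the 33 members, 25 had a fitted value below 0, against 48.5% of all genes, with a median log2 fold change of -0.17 beside 0.01 over all genes. By role, values below 0 were found for 13 of 14 ER chaperones, 5 of 7 genes of ER-associated degradation, 3 of 5 sensor genes and 4 of 7 genes of the ATF4 branch, and the difference between roles was not tested. Among the 6 M libraries the median ratio of highest to lowest library was 1.58 for members, beside 1.79 over all genes tested. Of 33 members, 26 had a ratio below the latter, while Derl3, the least counted, was at 3.62. Genes were not matched for level, so these ratios do not show that the members are steadier than other genes.

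**Figure D1:**
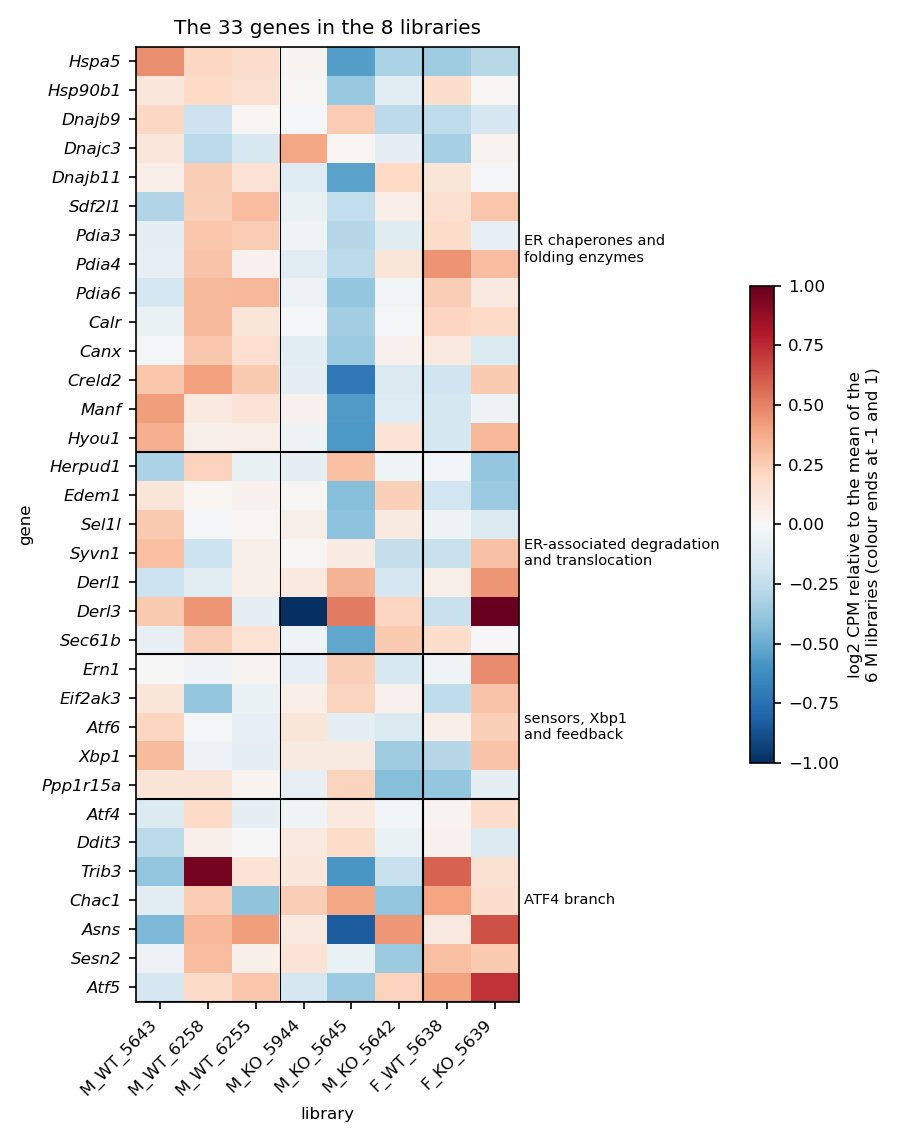
Log2 CPM of the 33 genes (rows, ordered by role) in the 8 libraries (columns), each relative to the gene's mean over the 6 M libraries; the colour scale ends at -1 and 1. All M_KO libraries lie below all M_WT libraries in the rows of Hspa5, Hsp90b1, Creld2 and Manf, while the groups overlap in the other chaperone rows. M_KO_5645 is the lowest M library for 11 of 14 chaperones, and the ATF4 branch has no common pattern by genotype.

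By level per length, ER chaperones led the list. In M_WT the deposited FPKM (fragments scaled to gene length and depth) was 393.8 ± 53.0 (SD, n = 3) for Calr, a lectin chaperone that binds calcium and new glycoproteins. Pdia3, the disulfide isomerase that works with it, was at 351.4 ± 46.5 FPKM and Hspa5, the ER chaperone BiP that also holds the sensors inactive, at 327.2 ± 39.2 FPKM. The table also holds a Calr-ps row, so reads of Calr could be shared with that pseudogene. The M_WT libraries of these neighbours in the order overlapped, so their rank is not set. Hsp90b1, the ER form of HSP90, followed at 209.9 ± 6.33 FPKM, apart from both of its neighbours. At the other end, the degradation factor Derl3 was at 0.50 ± 0.094 FPKM, the kinase gene Eif2ak3 at 5.22 ± 0.91 FPKM and Ddit3, which encodes the transcription factor CHOP, at 13.7 ± 1.55 FPKM. Of the 32 pairs of neighbours in this order, 25 overlapped.

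The ER chaperones and folding enzymes had lower values in M_KO in 13 of 14 genes, none of which was called by edgeR or DESeq2, and the size of the difference rests in part on a single library. The score of a library, the mean over the 14 genes of log2 CPM minus the mean of the 6 M libraries, was 0.09, 0.18 and 0.14 in M_WT_5643, M_WT_6258 and M_WT_6255. It was -0.01 in M_KO_5944, -0.35 in M_KO_5645 and -0.05 in M_KO_5642. Each M_KO library was therefore below each M_WT library, with M_KO_5645 far below the others. The means were 0.14 ± 0.042 and -0.14 ± 0.19 (SD, n = 3 each), a difference of -0.27, or 82.7% of the M_WT level. Summed over the 14 genes, the level was 6790 ± 323.1 CPM in M_WT and 5452 ± 691.3 CPM in M_KO. Without M_KO_5645 the score difference was -0.17, still with 13 of 14 genes at a fitted value below 0, and without any other M library it was between -0.34 and -0.26. The genes were chosen with earlier results known, so the score has no p. In bulk RNA, fewer cells of a type and less RNA per cell cannot be told apart.

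**Figure D2:**
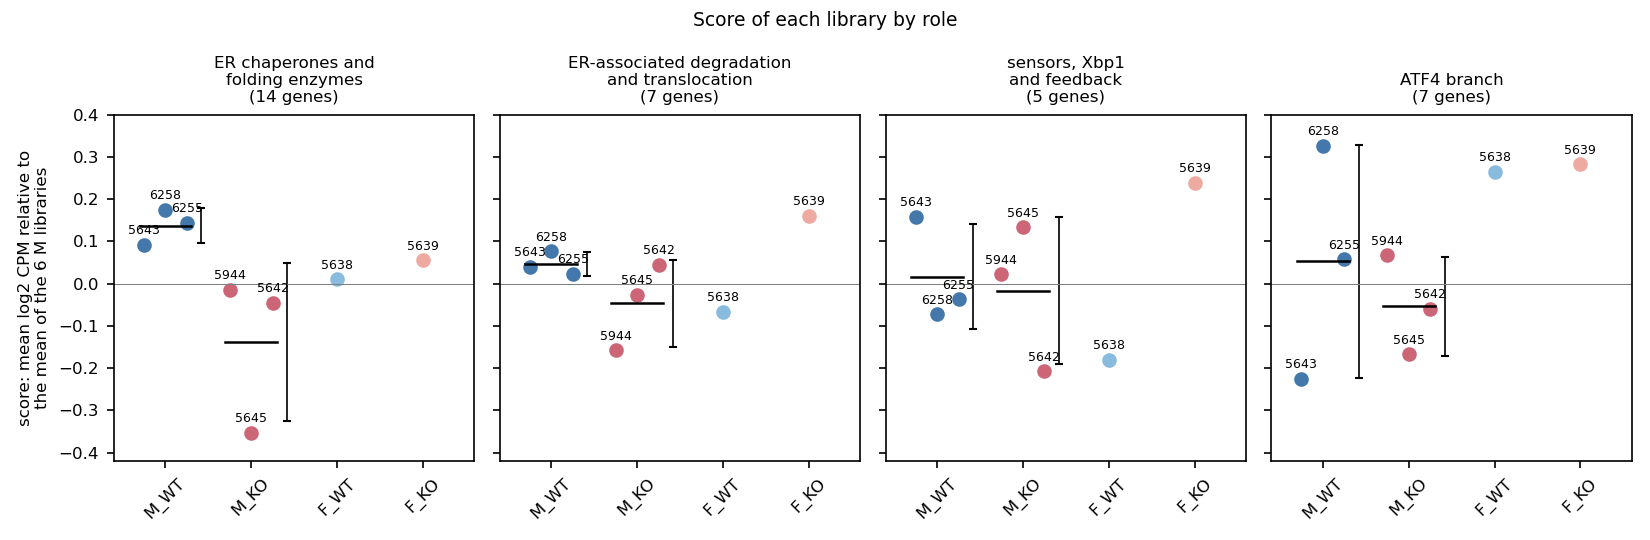
Score of each library (mean log2 CPM of the genes of a role relative to the 6 M libraries; points, labelled by animal number), with group means (lines) and SD (bars beside them) for M_WT and M_KO, n = 3 each; F_WT and F_KO have 1 library each. The groups M_WT and M_KO separate in the chaperone panel alone, where M_KO_5645 lies at -0.35, and the F pair lies close together there at 0.01 and 0.06.

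Markers of other cells moved with these scores in part. The summed level of the 10 B cell markers was 217.3, 91.0 and 86.9 CPM in M_WT_5643, M_WT_6258 and M_WT_6255, and 178.5, 350.9 and 120.3 CPM in M_KO_5944, M_KO_5645 and M_KO_5642. All 10 had a fitted value above 0 in M_KO, and the library lowest in chaperones was the highest M library in B cell markers. F_KO had the highest sum of all, 401.0 CPM, beside 262.6 CPM in F_WT, with chaperone scores of 0.06 and 0.01. The 11 plasma cell markers other than Xbp1 summed to 188.5 to 453.8 CPM in M_WT and 200.5 to 558.5 CPM in M_KO. Of the 9 plasma cell markers tested, Xbp1 included, 6 had a fitted value above 0 in M_KO. In the 8 libraries Ighm, the most counted of the 11, was at 61.8 to 338.0 CPM, Mzb1 at 1.44 to 12.5 CPM and Tnfrsf17 at 0 to 0.13 CPM. The sum of the 7 dendritic cell markers was 23.8 to 42.02 CPM in M_WT and 12.3 to 16.1 CPM in M_KO, and that of the 10 macrophage markers 21002 to 32278 CPM and 18172 to 20812 CPM, without overlap in either. Each gap rests on 1 gene: without Cd209a the dendritic cell sum was 14.5 to 26.7 CPM in M_WT and 12.2 to 16.1 CPM in M_KO, and without Lyz2 the macrophage sum was 8126 to 11730.4 CPM and 7506 to 9347 CPM, with overlap in both. Cd209a was at 15.3 and 14.5 CPM in M_WT_6258 and M_WT_6255, but at 0.098 CPM in M_WT_5643 and 0 CPM in F_WT. In the M_KO libraries it was at 0 to 0.15 CPM, and in F_KO at 0 CPM. The part of these marker differences in the chaperone result was not tested.

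The M_KO and M_WT libraries did not overlap for 4 members, Hspa5, Hsp90b1, Creld2 and Manf, all chaperone genes and all lower in M_KO. That is 12.1% of the members, against 6.95% of all genes tested in that direction and 16% in either direction, and 0 members lay wholly higher, against 9.09% of all genes. Hspa5 (ENSMUSG00000026864, chromosome 2, 34771970 to 34777547, plus strand, GRCm38) was at 1568, 1309.65 and 1281 CPM in M_WT, against 1157, 775 and 909 CPM in M_KO. M_KO_5944 lay nearest to M_WT and M_KO_5645 farthest. The log2 fold change was -0.56 (SE 0.20, 95% interval -1.02 to -0.090, edgeR adjusted p = 0.478), which is 68.0% of the M_WT level. Creld2, a secreted ER resident with a disulfide isomerase function (ENSMUSG00000023272, chromosome 15, 88819646 to 88826683, plus strand), was at 50.4, 55.1 and 49.7 CPM in M_WT, against 39.0, 25.3 and 37.6 CPM in M_KO. Its fold change was the largest of the 14 chaperones, -0.61 (SE 0.18, 95% interval -1.05 to -0.18, edgeR adjusted p = 0.464), and again M_KO_5645 was lowest. An exact two-sided permutation test of 3 against 3 libraries cannot go below p = 0.1. Any gene whose groups do not overlap gives that value, so for these 4 genes it only repeats how they were picked.

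Manf encodes a small secreted factor that is retained in the ER with BiP (ENSMUSG00000032575, chromosome 9, 106838312 to 106891979, minus strand). Its levels were 171.9, 137.6 and 140.6 CPM in M_WT, against 132.2, 86.8 and 117.3 CPM in M_KO, and the nearest libraries, M_WT_6258 and M_KO_5944, were 137.6 and 132.2 CPM. The log2 fold change was -0.43 (SE 0.18, 95% interval -0.86 to 0.010, edgeR adjusted p = 0.526). Hsp90b1 (ENSMUSG00000020048, chromosome 10, 86690209 to 86705509, minus strand) was at 821, 874 and 849 CPM in M_WT, against 767, 586 and 708 CPM in M_KO. The M_WT libraries were tight and the M_KO libraries wider, with a log2 fold change of -0.31 (SE 0.15, 95% interval -0.66 to 0.042, edgeR adjusted p = 0.554). Exons of Hsp90b1 share 415 bases, 10.3% of their length, with the pseudogene 1810014B01Rik on the opposite strand, and Manf shares 4.1% and 4.7% with Dcaf1 and an antisense gene, so that, with no strand setting of the counting stated, such reads cannot be told apart. The count of 4 members without overlap was 10 without M_WT_5643 (14.6% of all genes then), 10 without M_KO_5642 (13.2%), 7 without M_KO_5944 (13.7%), 6 without M_KO_5645 (10.6%), 4 without M_WT_6258 (9.6%) and 4 without M_WT_6255 (10.9%). With 4 of 33 members, 12.1%, the last pair lies near the background.

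**Figure D3:**
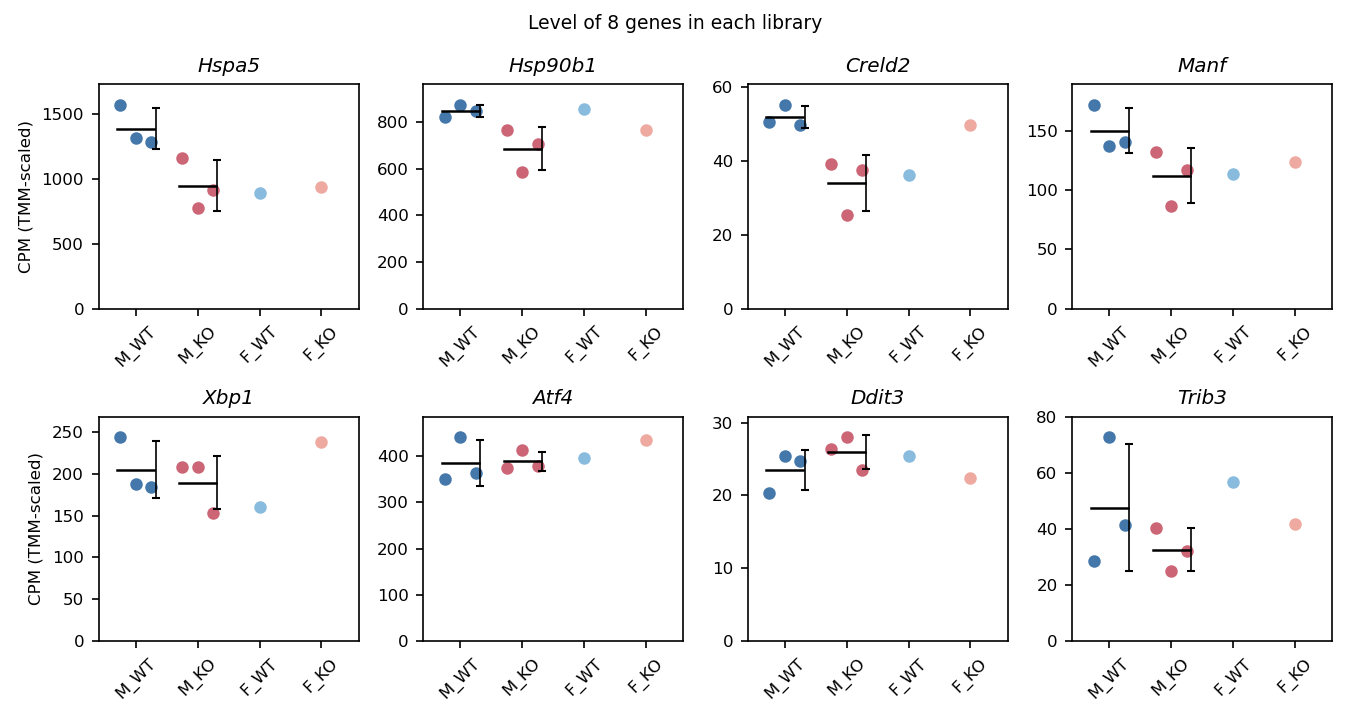
TMM-scaled CPM of 8 genes in each library (points), with mean (line) and SD (bar) for M_WT and M_KO, n = 3 each, and 1 library each for F_WT and F_KO; axes start at 0. The M_KO points lie below the M_WT points for Hspa5, Hsp90b1, Creld2 and Manf, and overlap them for Xbp1, Atf4, Ddit3 and Trib3.

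The other 10 chaperones had overlapping groups, with log2 fold changes from -0.33 for Pdia6, a disulfide isomerase, to 0.21 for Dnajc3, a BiP co-chaperone that also inhibits PERK. Dnajc3 was the sole chaperone above 0, at 230.0, 176.0 and 190.2 CPM in M_WT, against 277.4, 215.7 and 200.2 CPM in M_KO, and M_KO_5944 was its highest library. The lectin chaperones Calr and Canx were at -0.26 and -0.29, and the isomerases Pdia3 and Pdia4 at -0.30 and -0.17. For Pdia3, Pdia6, Calr and Canx, M_WT_5643 lay inside the M_KO range and the other M_WT libraries lay above all M_KO libraries. For Sdf2l1, a partner of ER J proteins, M_WT_5643 was the lowest M library, at 73.9 CPM. The other M_WT libraries of Sdf2l1 again lay above all M_KO libraries. Hyou1, the large nucleotide exchange factor for BiP, was at -0.31, and its groups overlapped because M_KO_5642, at 182.3 CPM, exceeded M_WT_6258 and M_WT_6255, at 172.2 and 173.1 CPM. The J proteins Dnajb11 and Dnajb9, both BiP partners, were at -0.29 and -0.01. M_KO_5645 was the lowest M library for 11 of the 14 chaperones (78.6%, against 22.8% of all genes), and M_WT_6258 the highest for 7.

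Promoters of the chaperones are shown because ATF6 and XBP1 are known to act on a shared element, the ER stress response element (ERSE). RefSeq start sites on GRCm38.p6 gave promoter entries for 29 of the 33 members, from 250 bases before to 50 after the start. Both strands were searched for ERSE as CCAAT, 9 bases of any kind and CCACG, for ERSE-II as ATTGG, 1 base of any kind and CCACG, for the unfolded protein response element (UPRE) as TGACGTG and for the ATF4 element (CARE) as TGATGNAA. ERSE letters stood in 9 of 29 members, and in 39 of all 32851 promoters (0.119%). ERSE-II letters stood in 2 members, Herpud1 and Dnajb11 (0.0365% of promoters), UPRE letters in Hspa5 (2.01%), and CARE letters in 4 members, Asns, Chac1, Trib3 and Herpud1 (3.97%). No match of these motifs overlapped another. The ERSE matches, read in the direction of the motif with its fixed letters in capitals, were these:
Hspa5: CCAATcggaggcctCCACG
Hsp90b1, distal: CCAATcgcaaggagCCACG
Hsp90b1, proximal: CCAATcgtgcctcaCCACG
Creld2: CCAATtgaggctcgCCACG
Calr: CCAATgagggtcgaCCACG
Canx: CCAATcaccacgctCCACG
Pdia6: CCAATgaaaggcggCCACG
Dnajc3: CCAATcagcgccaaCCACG
Syvn1: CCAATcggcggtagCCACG
Derl3: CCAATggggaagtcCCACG

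Of the 4 genes whose groups did not overlap, Hspa5, Hsp90b1 and Creld2 carry ERSE letters and Manf has no entry. The 250 bases before their starts are printed 5′ to 3′ on the strand of the gene, with the fixed letters of ERSE and UPRE matches in capitals. They lie at chr2:34771840-34772089 (plus strand), chr10:86705445-86705694 (minus strand) and chr15:88819396-88819645 (plus strand) on GRCm38.p6, and the longer gene models of the count table for Hspa5 and Hsp90b1 begin inside them.
Hspa5: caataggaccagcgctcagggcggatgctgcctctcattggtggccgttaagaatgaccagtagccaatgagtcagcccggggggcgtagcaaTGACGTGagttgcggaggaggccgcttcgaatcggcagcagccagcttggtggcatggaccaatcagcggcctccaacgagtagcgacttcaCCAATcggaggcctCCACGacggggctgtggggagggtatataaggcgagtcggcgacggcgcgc
Hsp90b1: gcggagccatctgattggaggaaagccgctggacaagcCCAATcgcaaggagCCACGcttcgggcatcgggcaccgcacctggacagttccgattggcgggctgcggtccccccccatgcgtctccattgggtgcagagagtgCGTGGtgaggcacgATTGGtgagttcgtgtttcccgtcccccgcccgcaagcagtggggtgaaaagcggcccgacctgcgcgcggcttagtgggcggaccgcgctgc
Creld2: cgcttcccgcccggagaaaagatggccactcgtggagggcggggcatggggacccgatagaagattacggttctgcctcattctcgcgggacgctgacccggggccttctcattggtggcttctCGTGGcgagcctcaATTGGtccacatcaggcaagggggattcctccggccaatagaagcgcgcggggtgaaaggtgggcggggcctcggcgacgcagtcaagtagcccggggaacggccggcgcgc

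The Hspa5 ERSE begins 65 bases before the start and the Hsp90b1 matches begin 212 and 107 bases before it, the latter on the other strand, as is that of Creld2 at 126. Over the 9 members with ERSE letters, 8 had a fitted value below 0 and the median log2 fold change was -0.29, with a range of -0.61 to 0.21. Over the 20 members whose window lacks these letters, 14 were below 0, with a median of -0.17. Within the chaperones alone the medians were -0.31 over 7 genes with the letters, -0.19 over 5 without and -0.37 over the 2 with no promoter entry. The 5 include Dnajb11, which has ERSE-II letters. These are descriptions of letters and values in genes that share libraries, and a match is not a binding site.

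Genes of ER-associated degradation and translocation overlapped between the genotypes. The M_WT scores were 0.04, 0.08 and 0.02, and those of M_KO -0.16, -0.03 and 0.04, so the groups overlapped, and the summed level was 1216 ± 13.3 CPM in M_WT and 1209.7 ± 24.98 CPM in M_KO (SD, n = 3 each). Of the 7 genes, 5 had a fitted value below 0, 0 were called by edgeR or DESeq2, and 0 had an unadjusted edgeR p under 0.05. Herpud1, a ubiquitin-like membrane protein that organises the degradation complex, was at 176.0, 256.8 and 208.4 CPM in M_WT, against 205.4, 269.7 and 212.5 CPM in M_KO. Its log2 fold change of 0.10 had a 95% interval of -0.35 to 0.54. The ubiquitin ligase gene Syvn1 was at -0.11, its adaptor Sel1l at -0.17, the mannosidase-like Edem1 at -0.10, the retrotranslocation factor Derl1 at 0.18 and the translocon subunit Sec61b at -0.18. Derl3, a Derlin typical of secretory cells, was at 0.34 to 1.23 CPM in the M libraries and 2.29 CPM in F_KO, which is few reads beside a floor of 0.12 to 0.17 CPM for 3 counts. M_KO_5645 held the lowest M value for Edem1, Sel1l and Sec61b and the highest for Herpud1, Derl1 and Derl3.

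The sensors, Xbp1 and the feedback gene overlapped between M_KO and M_WT, and 0 of these 5 genes were called by edgeR or DESeq2. Xbp1 (ENSMUSG00000020484, chromosome 11, 5520659 to 5525893, plus strand) was at 244.0, 188.0 and 183.7 CPM in M_WT, against 208.4, 207.6 and 153.0 CPM in M_KO, and each group held both high and low libraries. The log2 fold change was -0.12 (SE 0.18, 95% interval -0.56 to 0.32, edgeR adjusted p = 0.861). Gene counts do not separate the spliced from the unspliced Xbp1 messenger. Ern1, which encodes IRE1, was at 176.7, 172.3 and 180.0 CPM in M_WT, against 166.1, 207.9 and 157.6 CPM in M_KO, with a log2 fold change of 0.0016 and a 95% interval of -0.33 to 0.33. Eif2ak3, with 8.0% of its exon bases under a model on the opposite strand, and Atf6 were at 0.20 (95% interval -0.18 to 0.58) and -0.09 (-0.41 to 0.24). Ppp1r15a, which encodes the phosphatase subunit GADD34 that reverses eIF2alpha phosphorylation, was at 92.7, 92.7 and 86.4 CPM in M_WT, against 80.2, 98.7 and 63.2 CPM in M_KO (log2 fold change -0.17). These intervals leave room for changes of up to about the size seen for Hspa5 in Xbp1 and Eif2ak3, so they do not show equality.

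The ATF4 branch overlapped between the groups in its score and in each of its 7 genes. The score was -0.23, 0.33 and 0.06 in M_WT_5643, M_WT_6258 and M_WT_6255, and 0.07, -0.17 and -0.06 in M_KO_5944, M_KO_5645 and M_KO_5642. The M_WT libraries thus spanned both the highest and the lowest score. The means were 0.053 ± 0.28 and -0.053 ± 0.12 (SD, n = 3 each), a difference of -0.11, smaller than the spread within M_WT. That difference was 0.03 without M_WT_6258, -0.25 without M_WT_5643 and -0.05 without M_KO_5645, so its sign and size rest on single libraries. EdgeR and DESeq2 called 0 of the 7 genes, and 0 had an unadjusted edgeR p under 0.05.

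Atf4, which encodes the transcription factor of the branch (ENSMUSG00000042406, chromosome 15, 80255184 to 80257541, plus strand), was the steadiest member. Its levels were 351, 441 and 363 CPM in M_WT, against 375, 413 and 379 CPM in M_KO, a ratio of highest to lowest library of 1.26. The log2 fold change was 0.01 (SE 0.14, 95% interval -0.32 to 0.34, edgeR adjusted p = 0.990). ATF4 is controlled mainly at translation, which these data do not measure. Ddit3 (ENSMUSG00000025408, chromosome 10, 127290774 to 127296288, plus strand), a target of ATF4 tied to cell death under lasting stress, was at 20.4, 25.5 and 24.7 CPM in M_WT, against 26.4, 28.0 and 23.5 CPM in M_KO. M_WT_5643 was lowest and M_KO_5645 highest, and the log2 fold change was 0.14 (SE 0.15, 95% interval -0.21 to 0.48, edgeR adjusted p = 0.788). Its exons share 68 bases, 4.0% of their length, with the methionyl-tRNA synthetase gene Mars on the opposite strand.

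Trib3, a pseudokinase that restrains ATF4 and CHOP (ENSMUSG00000032715, chromosome 2, 152337422 to 152344032, minus strand), had the widest spread among well-counted members. Its levels were 28.6, 72.9 and 41.4 CPM in M_WT, against 40.5, 25.2 and 32.2 CPM in M_KO. Its lower M_KO mean came with 1 high library, M_WT_6258, and a M_WT library at 28.6 CPM lay inside the M_KO range. The log2 fold change was -0.55 (SE 0.35, 95% interval -1.40 to 0.29, edgeR adjusted p = 0.635), and it was -0.11 without M_WT_6258. Asns, asparagine synthetase, was at 87.6, 150.8 and 160.4 CPM in M_WT, against 127.9, 67.5 and 162.0 CPM in M_KO, with 1 low library in each group. Chac1, which degrades glutathione, was at 0.17, Sesn2, a leucine-sensing inhibitor of mTORC1, at -0.20 and Atf5, a transcription factor under the same translational control as ATF4, at -0.20. The 250 bases before the starts of Asns, chr6:7693210-7693459 (minus strand), and Chac1, chr2:119350992-119351241 (plus strand), are shown because CARE letters (capitals) stand there, 23 and 193 bases before the start, the latter on the other strand.
Asns: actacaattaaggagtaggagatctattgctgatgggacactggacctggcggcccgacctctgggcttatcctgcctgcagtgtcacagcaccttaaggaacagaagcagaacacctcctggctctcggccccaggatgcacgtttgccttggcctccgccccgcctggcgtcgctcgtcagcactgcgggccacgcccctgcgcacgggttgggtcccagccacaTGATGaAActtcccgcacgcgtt
Chac1: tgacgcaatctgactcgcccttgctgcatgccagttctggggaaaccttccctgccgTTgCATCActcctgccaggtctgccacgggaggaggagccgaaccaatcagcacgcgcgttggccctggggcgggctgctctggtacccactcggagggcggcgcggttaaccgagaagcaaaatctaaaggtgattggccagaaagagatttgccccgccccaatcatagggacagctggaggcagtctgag

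**Figure D4:**
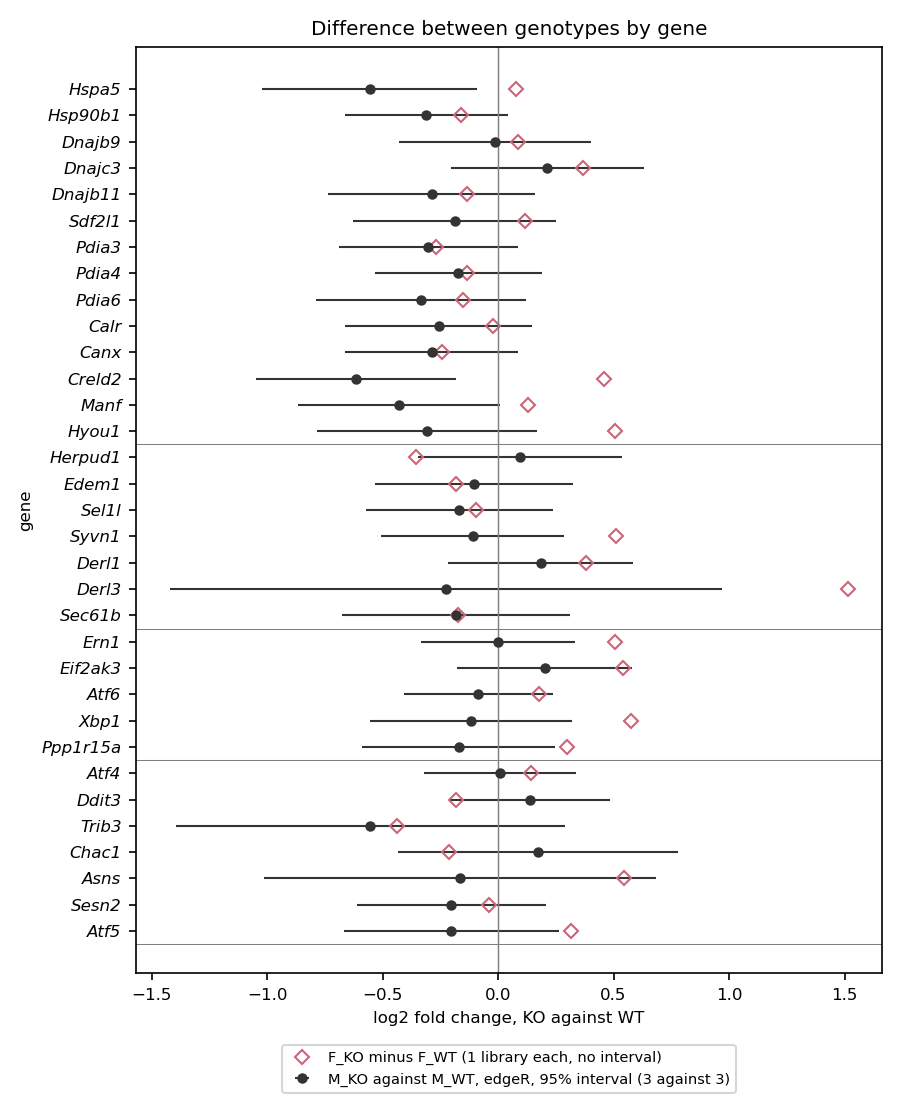
Log2 fold change of KO against WT for each of the 33 genes (rows, ordered by role): filled points with 95% intervals are M_KO against M_WT by edgeR (3 against 3), and open diamonds are F_KO minus F_WT (1 library each). Intervals of the M comparison exclude 0 for Hspa5 and Creld2 before adjustment, and the diamonds of the 5 sensors, Xbp1 and feedback genes lie above 0.

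The F pair, 1 library per genotype and so with no replicate check, gave no common direction for the chaperones. The chaperone score was 0.01 in F_WT and 0.06 in F_KO, while the summed chaperone level was 6316 CPM in F_WT and lower, 6025 CPM, in F_KO, and 7 of 14 chaperones were lower in F_KO, against 51.6% of all genes tested. Hspa5 was at 889 CPM in F_WT beside 939 CPM in F_KO, a ratio of 1.06 (95% interval from an exact binomial interval, 1.04 to 1.08, counting error only). F_WT thus lay inside the M_KO range of 775 to 1157 CPM. Creld2 was at 36.2 and 49.7 CPM, a ratio of 1.37 (1.25 to 1.51), and Manf at 113.4 and 124.0 CPM. Hsp90b1 was at 858 and 768 CPM, and was the sole member whose 4 KO libraries all lay below the 4 WT libraries (2.42% of all genes did so, and 3.22% lay above, with 0 members). The 5 genes of the sensor group were all higher in F_KO, Xbp1 at 160.0 and 238.5 CPM, Ern1 at 171.5 and 243.8 CPM and Eif2ak3 at 28.2 and 41.1 CPM. In the ATF4 branch, 4 of 7 genes were lower in F_KO, and the scores were 0.27 and 0.28. Trib3 was at 56.7 and 41.8 CPM and Asns at 127.6 and 186.0 CPM.

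A term for the interaction of genotype and letter, which asks whether the F difference departs from the M difference, was called for 0 of 33 members by edgeR (0.0218% of all genes) and by DESeq2. The smallest adjusted p was 0.965, and 1 member, Creld2, had an unadjusted edgeR p under 0.05, against 4.36% of all genes. The spread in that test comes from the M libraries alone, since the F groups have 1 library each. With the letter as a covariate and all 8 libraries, edgeR called 0 members by genotype (0.00727% of all genes) with a smallest adjusted p of 0.529, DESeq2 called 0, and 0 members had an unadjusted edgeR p under 0.05, against 9.48% of all genes. Hspa5 was at a log2 fold change of -0.39 and Hsp90b1 at -0.26 in that fit.

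Further genes of the pathways came from lists of other ER folding and quality control genes, other sensors and other ATF4 targets. EdgeR called 0 genes of each. Of 41 other ER folding genes, 26 had a fitted value below 0 (median log2 fold change -0.10), 3 (7.32%, against 6.95% of all genes) lay wholly lower and 2 (4.88%, against 9.09%) wholly higher in M_KO, which is near or under the background, and the smallest p-values were those of Ube2g2, a ubiquitin-conjugating enzyme of ER degradation, and Serp1, which protects new membrane proteins. Ube2g2 was at 61.6 ± 6.62 CPM in M_WT and 78.4 ± 1.202 CPM in M_KO, and Serp1 at 721 ± 113.9 and 533.6 ± 100.02 CPM (SD, n = 3 each), with edgeR adjusted p of 0.474 and 0.537. Of 12 other sensors tested, 6 were below 0. Atf6b, the paralogue of Atf6, was at 46.7 ± 2.94 CPM in M_WT and 59.9 ± 5.17 CPM in M_KO, and Ppp1r15b, the constitutive eIF2alpha phosphatase subunit, at 331 ± 28.0 and 240.3 ± 47.2 CPM (SD, n = 3 each). Their edgeR adjusted p were 0.474 and 0.487.

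EdgeR called none of the other ATF4 targets. Of the 39 tested, 30 had a fitted value below 0 (median log2 fold change -0.26), and 12 (30.8%) lay wholly lower in M_KO, against 6.95% of all genes. These were Psat1, Mthfd2, Slc7a11, Slc3a2, Slc7a1, Gpt2, Pycr1, Jdp2 and the tRNA synthetase genes Eprs, Tars, Iars and Lars, many of which serve amino acid synthesis, uptake or charging. M_KO_5645 was the lowest M library for all 12, and for 29 of the 39, but without it 13 genes lay wholly lower (10.6% of all genes then). In the F pair, 9 of the 12 were higher in F_KO, as were 30 of all 39, while 51.6% of all genes tested were lower. Slc7a11, the cystine transporter, chosen after its values were seen, was at 720, 972 and 1093 CPM in M_WT, against 396, 151 and 562 CPM in M_KO (log2 fold change -1.34, SE 0.45, edgeR adjusted p = 0.474), and at 671 and 411 CPM in F_WT and F_KO. The sole DESeq2 call of the list was Gdf15, a stress-induced cytokine, while DESeq2 called 1.19% of all its genes. For Gdf15 the adjusted p was 0.0369 by DESeq2 and 0.474 by edgeR (0.0369 to 0.931 over the alternatives). Its levels were 2.71, 40.6 and 29.5 CPM in M_WT, against 3.40, 3.64 and 5.55 CPM in M_KO, so M_WT_5643 was the lowest of the 6, and edgeR's adjusted p was 0.0445 without it.

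The cytosolic heat shock genes are the counterpart of the ER response outside that compartment. Of 19 fitted values, 18 were below 0, against 48.5% of all genes, with a median of -0.12, and edgeR called 0. In M_KO, 3 of the 19 lay wholly lower, against 6.95% of all genes, and 1 wholly higher, against 9.09%. Hspa1b, an inducible HSP70, was the exception and the sole DESeq2 call of that list, where DESeq2 called 1.19% of all its genes. Its levels were 25.4, 11.9 and 14.2 CPM in M_WT, against 38.4, 57.2 and 32.6 CPM in M_KO, without overlap (log2 fold change 1.31, SE 0.34, adjusted p = 0.434 by edgeR and 0.0397 by DESeq2, 0.0397 to 0.923 over the alternatives). In the F pair it was at 20.7 and 40.1 CPM. Its near-identical neighbour Hspa1a can share reads with it, so its counts are uncertain.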

How the data were processed

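RNA was sequenced in 8 libraries made with a NEBNext Ultra RNA kit, per the labels' protocols. The tools listed, per the submitters' processing notes, are HISAT2 2.0.5, then DESeq2 1.16.1 and featureCounts 1.5.0-p3, and the builds mm10 and GRCm38. No source used here gives the annotation release, the strand setting or the treatment of multi-mapping reads. The count table deposited by the authors holds whole read counts per gene. The authors' FPKM table scales fragment counts to gene length and library size. A deposited table of the authors' own test of M_KO against M_WT gives log2 fold changes and p-values. No value column lacked a sample (0 columns), and the second deposited comparison table, a subset, was not used.

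The main test was that of edgeR 4.0.16 under R 4.3.3 (quasi-likelihood test, TMM scaling, default expression filter on genotype, Benjamini-Hochberg adjustment over all genes tested, threshold 0.05). The M comparison used 6 libraries and 13646 genes, with 4 residual degrees of freedom and a biological coefficient of variation of 0.30. Models over 8 libraries tested 13751 genes. All 33 members passed the filter. Standard errors come from the F statistic, and CPM values are scaled over all 8 libraries. Scores use a prior count of 2. F ratios carry exact 95% binomial intervals for counting error alone, as PCR copies of a molecule cannot be told from separate molecules. A count of 0 allows up to 3 counts. DESeq2 1.42.0 and limma 3.58.1 on log2(FPKM + 1) were alternatives, beside other scalings, filters, covariates and leaving out each library. The tests were first tried on simulated counts, with planted changes larger than any fitted for a member in M_KO against M_WT. That trial does not show how often changes of the members' size would be called. Exon overlaps come from GENCODE M21 on GRCm38.

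The members and gene lists were chosen with earlier results of these data known. Values by library were given for members whose M groups did not overlap, for members called by edgeR or DESeq2 and for Hspa5, Xbp1, Atf4, Ddit3 and Trib3, and for a few others as examples chosen after their values were seen. From the other lists, called genes were named, or else the 2 with the smallest p. Groups share no animal number, so no pairing was used.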

Additional observations from a re-analysis of the deposited data

How the results depend on the processing

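Across DESeq2, RLE scaling, both changes of the filter on low counts, a fit of 4 groups over all 8 libraries, limma on log2(FPKM + 1), a term for animal numbers beginning with 56 and leaving out each M library, the number of members called in M_KO against M_WT stayed at 0. It also stayed at 0 for genotype over 8 libraries and for the interaction, under RLE scaling, DESeq2 and each library left out that was tried. No paired analysis was possible because the groups share no animal number. The numbers of M_WT_6258 and M_WT_6255 begin with digits that no KO library has, and the term for 56 puts M_KO_5944 with them. Number series and genotype can thus not be fully told apart. Across genes, the Spearman correlation of M_WT_5643 was 0.984 with M_KO_5944, 0.973 with M_WT_6258 and 0.976 with M_WT_6255. It was 0.959 with M_KO_5645 and 0.954 with M_KO_5642. The chaperone score difference of -0.27 ran from -0.34 to -0.17 when 1 library was left out and from -0.32 to -0.27 under the other scalings and summaries. The ATF4 branch difference of -0.11 ran from -0.25 to 0.03 when 1 library was left out, and was -0.06 with the median over genes. All genes called by edgeR numbered 3, against 187 by DESeq2, 16 with no filter, and 0 to 21 when 1 library was left out.

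Over 13 alternatives and 33 members, 22 of 429 fitted values turned their sign, in 10 members; 13 of the 14 chaperones never turned. When 1 library was left out, log2 fold changes ran from -0.16 to 0.11 for Dnajb9, -0.041 to 0.24 for Herpud1, -0.26 to 0.056 for Edem1, -0.24 to 0.030 for Syvn1, -0.56 to 0.14 for Derl3, -0.13 to 0.081 for Ern1, -0.16 to 0.016 for Atf6, -0.20 to 0.031 for Xbp1, -0.047 to 0.11 for Atf4 and -0.45 to 0.12 for Asns. Ern1 was at -0.0071 by DESeq2, -0.0034 with RLE scaling, -0.023 with the term for animal numbers and -0.017 with limma on FPKM, and Asns at 0.047 with that term. The cause of these turns was not tested. With 3 libraries a group, the 95% interval still ran from -0.32 to 0.34 for Atf4, steadiest by ratio of highest to lowest library. It ran from -1.42 to 0.97 for Derl3, the least counted, so differences within such intervals are not excluded. Larger ones need not be called either. The intervals of Hspa5 and Creld2 excluded 0, but their edgeR adjusted p were 0.478 and 0.464.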
